A study of Mus musculus with 9 samples.

Results

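The Schlafen genes are a family of mammalian genes, most of which are induced by interferon, and in the mouse they lie side by side on chromosome 11. The family was taken from the deposited RNA-seq count table as the rows whose Ensembl gene ID maps to Slfn1, Slfn2, Slfn3, Slfn4, Slfn5, Slfn8, Slfn9 or Slfn10-ps. All 8 were found, among 53715 rows, and all 8 passed the filter on low counts that left 17351 genes for testing. The family was chosen with results of these libraries known, in which members differed between the genotypes, so the genotype differences of its members are a description here and carry no test of their own. Levels are TMM-scaled CPM, read counts put on a common scale for library size and composition. Per-library values are listed in replicate order, the 3 WT libraries first.

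The study asked what the splicing factor SRSF1 does late in T cell maturation. Bulk Smart-seq2 libraries were made from sorted thymocytes positive for CD4, CD8, TCRβ, CD24 and CD69, the profile of double-positive cells that have received a T cell receptor signal. There were 3 libraries of WT mice and 2 of mice labelled SRSF1KO, all C57BL/6 and 6 to 8 weeks old. The SRSF1KO genotype is Srsf1fl/flLckcre/+, in which Cre under the T-lineage Lck promoter deletes the floxed Srsf1 gene in developing thymocytes. The labels do not say whether the WT mice carried Cre or a floxed allele, nor whether each replicate was a separate animal. Each group held libraries of both sex patterns, given with the library facts, so its libraries were not all of 1 animal, but p-values reflect no more than the spread of these libraries. The 4 CLIP-seq samples of the series, of whole thymocytes, were not analysed here. In bulk libraries such as these, fewer cells of a type and less RNA per cell cannot be told apart.

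Schlafen proteins share an N-terminal core with a putative nucleotide-binding fold, and several members cleave or bind tRNA. The short members, Slfn1 and Slfn2, consist of little more than this core, the intermediate members Slfn3 and Slfn4 carry an additional linker domain, and the long members Slfn5, Slfn8 and Slfn9 end in a helicase-like domain. In T cells the family is known for growth control: Slfn2 is needed to keep T cells quiescent, and mice with the elektra mutation of Slfn2 lose T cells and succumb to infection. Slfn4 is known mainly from myeloid cells.

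The libraries held 36026006 to 38985285 counts. Srsf1, the targeted gene, read 96.9, 123 and 103 CPM in WT but 42.6 and 30.9 CPM in SRSF1KO. The groups did not overlap, and Srsf1 fell with little room to the threshold (log2 fold change −1.55 ± 0.19 SE, edgeR adjusted p = 0.0483). The call was lost with any 1 of the 5 libraries left out, at log2 fold changes of −1.80 to −1.32. A list of 11 genes held those of the sort gate with Trac, Cd3d, Cd3e and Cd3g, and all were detected. Of these 0 were called (edgeR, with 2 lower and 1 higher at an unadjusted p under 0.05, 1 higher with DESeq2 and 0 with limma-voom). Cd4 lay above WT in both SRSF1KO libraries, at 1229 and 1118 CPM against 767 to 932 CPM. Cd3g, Trac and Cd3d lay below WT in both. By counts of 1 Y-linked gene, Ddx3y, WT replicate 2 (5803) and SRSF1KO replicate 1 (5699) had the male pattern and the other 3 libraries the female pattern. Those 3 held 23 (WT replicate 1), 141 (WT replicate 3) and 84 (SRSF1KO replicate 2) such counts, whose source was not tested.

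The windows upstream of the Schlafen start sites are shown first because Slfn1 and Slfn4, which went different ways, carry the same short element there. Slfn8 and Slfn9 share another element, but neither passed with edgeR and the groups overlapped for Slfn9. Windows were taken from RefSeq (GRCm38.p6), which held a window for 7 of the 8 members. Each sequence runs 5′ to 3′ on the strand of its gene and ends at the base before an annotated start. In Slfn1 (chr11:83116570-83116819, plus strand) and Slfn4 (chr11:83174936-83175185, plus strand) capitals mark ACTTCCTGG, which contains the core letters bound by ETS factors. In Slfn8 (chr11:83020811-83021060, minus strand) and Slfn9 (chr11:82991831-82992080, minus strand) capitals mark the core of the interferon-stimulated response element on the opposite strand, which is GAAA, any 2 bases and GAAA again.
Slfn1: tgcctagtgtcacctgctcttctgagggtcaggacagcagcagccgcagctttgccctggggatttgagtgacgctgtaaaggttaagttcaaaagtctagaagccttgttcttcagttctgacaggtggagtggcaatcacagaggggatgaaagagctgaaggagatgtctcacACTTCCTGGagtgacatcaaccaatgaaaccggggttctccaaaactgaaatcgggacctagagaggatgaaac
Slfn4: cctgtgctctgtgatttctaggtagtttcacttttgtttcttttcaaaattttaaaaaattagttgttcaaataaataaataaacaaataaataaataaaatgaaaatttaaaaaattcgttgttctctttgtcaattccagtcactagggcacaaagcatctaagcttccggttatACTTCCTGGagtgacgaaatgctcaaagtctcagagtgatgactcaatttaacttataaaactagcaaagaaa
Slfn8: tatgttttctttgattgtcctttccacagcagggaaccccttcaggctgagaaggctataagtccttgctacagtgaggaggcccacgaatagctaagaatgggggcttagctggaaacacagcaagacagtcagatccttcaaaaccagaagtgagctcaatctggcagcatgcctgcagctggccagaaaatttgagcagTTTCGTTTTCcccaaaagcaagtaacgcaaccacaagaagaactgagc
Slfn9: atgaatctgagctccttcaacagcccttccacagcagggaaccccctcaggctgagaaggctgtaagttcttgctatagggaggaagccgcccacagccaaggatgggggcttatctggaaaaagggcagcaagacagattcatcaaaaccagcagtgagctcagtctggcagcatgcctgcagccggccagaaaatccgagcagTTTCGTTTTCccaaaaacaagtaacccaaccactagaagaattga

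Searched on both strands, ACTTCCTGG was found in Slfn1, Slfn2, Slfn3 and Slfn4, at −74, −55, −42 and −73 (first base, counted from the start site). It was searched for after the windows had been read, and 0.843% of 32851 RefSeq windows of the same length (250 bases before to 50 after a start) hold it. The interferon core was found in Slfn5, Slfn8 and Slfn9, at −155, −48 and −45, and in 3.44% of all windows. The Slfn5 window (chr11:82951852-82952101, plus strand) ends at an annotated start inside the gene, whose span begins at 82951349. A further annotated start of Slfn8 has the same match at −136. The last motif, TTCNNNGAA, the core of the STAT-bound GAS element, is in 8.30% of all windows and was in none of the Schlafen windows. No member has both motifs that were found. Slfn1 and Slfn4, the members with the most negative and the most positive fold change, have the same element at nearly the same distance. Neither has an exact match to the interferon core, and near matches were not searched for. The matches are descriptions of letters, not measured binding. Aligned over the 250 upstream bases, Slfn8 and Slfn9 were identical at 80.2% of aligned positions, while the other 20 pairs were identical at 45.5% to 53.4%.

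Slfn1 fell and Slfn4 rose in SRSF1KO, while the other 6 members did not pass (edgeR quasi-likelihood test, adjusted p under 0.05 over all genes tested). Over all genes the same fit called 0.213% lower and 0.0519% higher. The members' own calls led to their selection, so nothing is read from these shares. DESeq2 called 3 members, Slfn8 as well as Slfn1 and Slfn4, against 6.22% of the genes it tested. Of the 8 log2 fold changes 4 were negative and 4 positive, with a median of −0.07, against −0.01 and 50.6% negative over all genes tested. The SRSF1KO libraries lay below all WT libraries for Slfn1, Slfn2 and Slfn8, a pattern held by 17.8% of all genes, and above them for Slfn4, as for 15.2% of all genes.

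**Figure D1:**
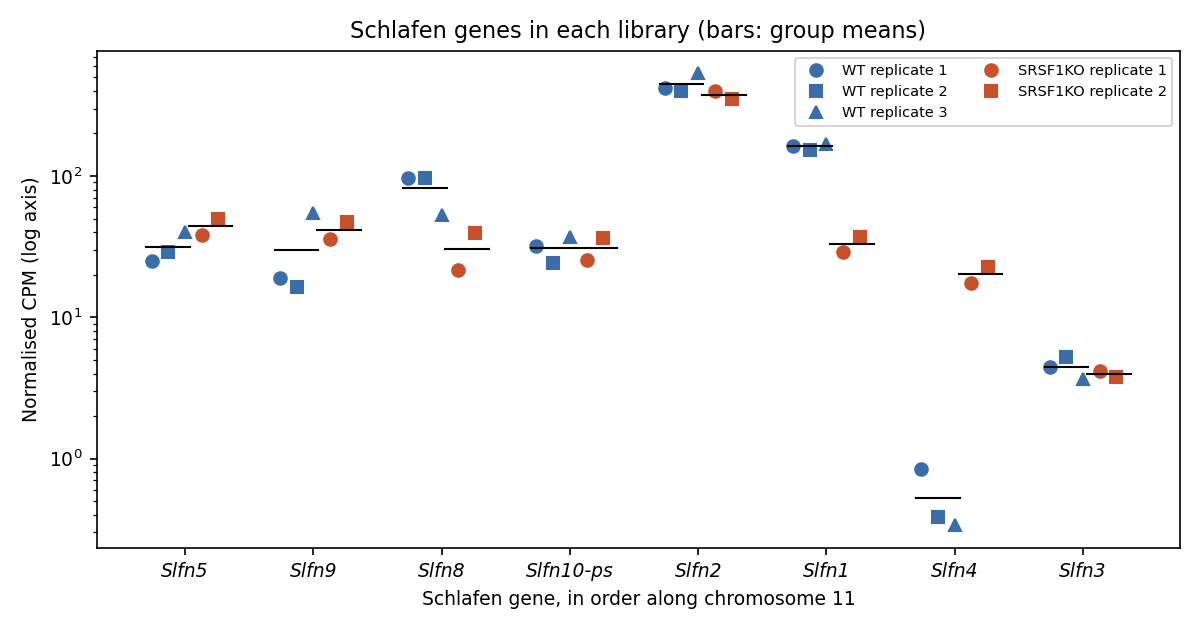
Normalised CPM (log axis) of the 8 Schlafen genes, ordered along chromosome 11, in the 3 WT (blue) and 2 SRSF1KO (red) libraries. Each point is 1 library and black bars are group means. The groups lie far apart for Slfn1 and Slfn4, and WT replicate 3 (blue triangle) sits with the SRSF1KO libraries for Slfn9.

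Among the short members, Slfn1 (ENSMUSG00000078763.2, chromosome 11, 83116820 to 83122670), a gene that restrains thymocyte growth when overexpressed, read 164, 152 and 170 CPM in WT. In SRSF1KO it read 29.2 and 36.7 CPM. All WT libraries lay within 1.12-fold of each other and far above both SRSF1KO libraries. The WT mean of 162 ± 9.23 CPM (SD, n = 3) was 4.91-fold above the SRSF1KO mean of 33.0 ± 5.34 CPM (SD, n = 2). On the log2 scale Slfn1 stood at −2.30 ± 0.14 (SE) against WT. Leaving out 1 library moved the log2 fold change only between −2.45 and −2.14, but the call was lost without WT replicate 1, 2 or 3.

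Slfn2 (ENSMUSG00000072620.3, 83065112 to 83070678), the quiescence gene of the family, read 423, 399 and 532 CPM in WT, against 397 and 352 CPM in SRSF1KO. The groups did not overlap, but SRSF1KO replicate 1 lay only just below WT replicate 2. The log2 fold change was −0.27 ± 0.14 (SE), with means of 451 ± 71.4 (SD, n = 3) and 375 ± 31.7 CPM (SD, n = 2), and did not pass. Between the 2 libraries of the male pattern the difference was −0.01 on the log2 scale, and among the 3 of the female pattern −0.43. The noncoding gene Gm20234 lies within Slfn2 and held 17 to 168 counts a library.

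Slfn2 and Slfn1 held most of the family's reads. Slfn2 took 55.2%, 55.2% and 59.8% of the reads of the 8 genes in WT, against 69.8% and 59.9% in SRSF1KO. Slfn1 took 21.5%, 21.0% and 19.0% of them in WT and 5.13% and 6.24% in SRSF1KO. These are shares of reads, which depend on transcript length as well as on level, and transcript lengths were not used here. Summed over all 8 genes the family read 765, 722 and 891 CPM in WT and 569 and 589 CPM in SRSF1KO. The mean sum was thus 792 ± 87.7 CPM (SD, n = 3) in WT and 579 ± 13.9 CPM (SD, n = 2) in SRSF1KO, without overlap.

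Of the intermediate members, Slfn4 (ENSMUSG00000000204.16, 83175172 to 83190216) held 32, 14 and 13 counts in WT, or 0.845, 0.385 and 0.338 CPM. In SRSF1KO it held 626 and 815 counts, or 17.4 and 22.8 CPM. Slfn4 was thus close to absent in every WT library and clearly present in both SRSF1KO libraries. The mean was 38.4-fold higher in SRSF1KO, at 20.1 ± 3.84 CPM (SD, n = 2) against 0.522 ± 0.280 CPM (SD, n = 3), and the fitted log2 fold change was 5.26 ± 0.47 (SE). It lay between 5.03 and 5.79 with 1 library left out, and the call was lost without WT replicate 1, 2 or 3. Within the male pattern the difference was 5.50 and within the female pattern 5.42 on the log2 scale, each resting on 1 SRSF1KO library. With a term for sex the fitted value was 5.35 and the call was lost.

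Slfn3 (ENSMUSG00000018986.10, 83191330 to 83215154), which has been described in regulatory T cells, begins 1113 bases beyond the end of Slfn4 on the same strand. It read 4.44, 5.22 and 3.64 CPM in WT, against 4.16 and 3.81 CPM in SRSF1KO. The groups overlapped, and the log2 fold change was −0.15 ± 0.40 (SE). Slfn3 held 136 to 190 counts in every library, while its neighbour Slfn4 held 13 to 32 in WT and 626 and 815 in SRSF1KO. Reads that fit more than 1 Schlafen gene can be assigned among them or left out by the counting, and which was done is not given. A sum over genes does not restore reads left out. With Slfn3 and Slfn4 added together the WT mean was 4.95 ± 0.864 CPM (SD, n = 3) and the SRSF1KO mean 24.1 ± 3.59 CPM (SD, n = 2). For the sum of Slfn1 and Slfn2 these means were 613 ± 79.2 and 408 ± 26.3 CPM.

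Of the long members, Slfn5 (ENSMUSG00000054404.13, 82951349 to 82964850), a nuclear Schlafen protein with a role in transcription, read 25.0, 28.9 and 40.4 CPM in WT, against 38.1 and 49.9 CPM in SRSF1KO. WT replicate 3 lay between the SRSF1KO libraries. The log2 fold change was 0.49 ± 0.24 (SE) and did not pass. Slfn5os, a noncoding gene that overlaps Slfn5, held at most 6 counts in any library.

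Slfn8 (ENSMUSG00000035208.16, 83002125 to 83020810), a relative of the tRNA-cleaving SLFN13, read 97.3, 96.4 and 52.8 CPM in WT. In SRSF1KO it read 21.4 and 39.6 CPM. WT replicates 1 and 2 were alike and WT replicate 3 lay nearer to the SRSF1KO libraries, though the groups did not overlap. The log2 fold change of −1.43 ± 0.35 (SE), with means of 82.2 ± 25.4 (SD, n = 3) and 30.5 ± 12.8 CPM (SD, n = 2), did not pass with edgeR. Slfn8 was called lower by DESeq2, and by edgeR when genes whose mean was under 5 CPM were dropped. The log2 fold change was −1.92 without SRSF1KO replicate 2 and −1.05 without SRSF1KO replicate 1. Within the male pattern it was −2.17 and within the female pattern −0.86.

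Slfn9 (ENSMUSG00000069793.12, 82974316 to 82991830), next to Slfn8 and the member most like it upstream, read 19.0, 16.5 and 54.6 CPM in WT, against 36.0 and 46.9 CPM in SRSF1KO. WT replicate 3 was the highest of the 5 libraries, 3.32-fold above WT replicate 2. No other member spread as widely among the WT libraries, the next being Slfn4 at 2.50-fold. The mean of 30.01 ± 21.3 CPM (SD, n = 3) against 41.4 ± 7.71 CPM (SD, n = 2) gave a log2 fold change of 0.46 ± 0.49 (SE). It was 1.24 without WT replicate 3 and 0.17 without WT replicate 2, and in neither case was it called.

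The share of reads falling to Slfn8 or to Slfn9 differed between libraries. Slfn9 took 16.3% and 14.6% of their joint reads in WT replicates 1 and 2 and 50.8% in WT replicate 3. In SRSF1KO it took 62.6% and 54.2%. Added together, the pair read 116, 113 and 107 CPM in WT, where WT replicate 3 no longer stood apart. In SRSF1KO the sum was 57.4 and 86.4 CPM, below every WT library, and its mean was 0.641 times that of WT. How reads common to both genes were counted is not given in the sources used here, and the part of read assignment in the Slfn8 and Slfn9 values was not tested.

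**Figure D2:**
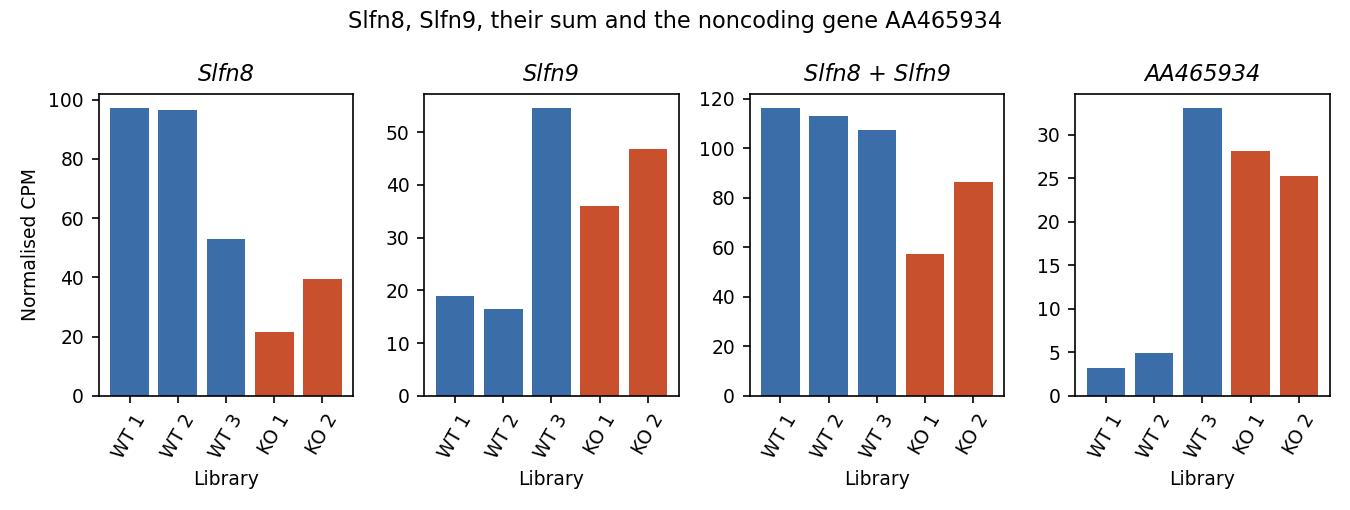
Normalised CPM of Slfn8, Slfn9, the sum of both and the nearby noncoding gene AA465934 in WT libraries 1 to 3 (blue) and SRSF1KO libraries 1 and 2 (red), 1 bar a library. WT replicate 3 stands with the SRSF1KO libraries for Slfn9 and AA465934, and with the other WT libraries for the sum.

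Slfn10-ps (ENSMUSG00000072621.13, 83028123 to 83040533), named as a pseudogene, read 31.8, 24.2 and 36.7 CPM in WT, against 25.6 and 36.5 CPM in SRSF1KO. The groups overlapped, at a log2 fold change of 0.01 ± 0.25 (SE), whose sign changed with the processing. Of the relatives outside the family as defined here, Slfn14 held 0 to 21 counts a library and did not pass the filter, and Slfnl1, on chromosome 4, held 0 counts in each library, a result that allows up to 3 counts.

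Along the chromosome the members lie within 264 kb and their fold changes did not follow position. From Slfn5 rightwards the order is Slfn5, Slfn9, Slfn8, Slfn10-ps, Slfn2, Slfn1, Slfn4 and Slfn3, with log2 fold changes of 0.49, 0.46, −1.43, 0.01, −0.27, −2.30, 5.26 and −0.15. Among members the most negative and the most positive value belong to the neighbours Slfn1 and Slfn4, 52501 bases apart.

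**Figure D3:**
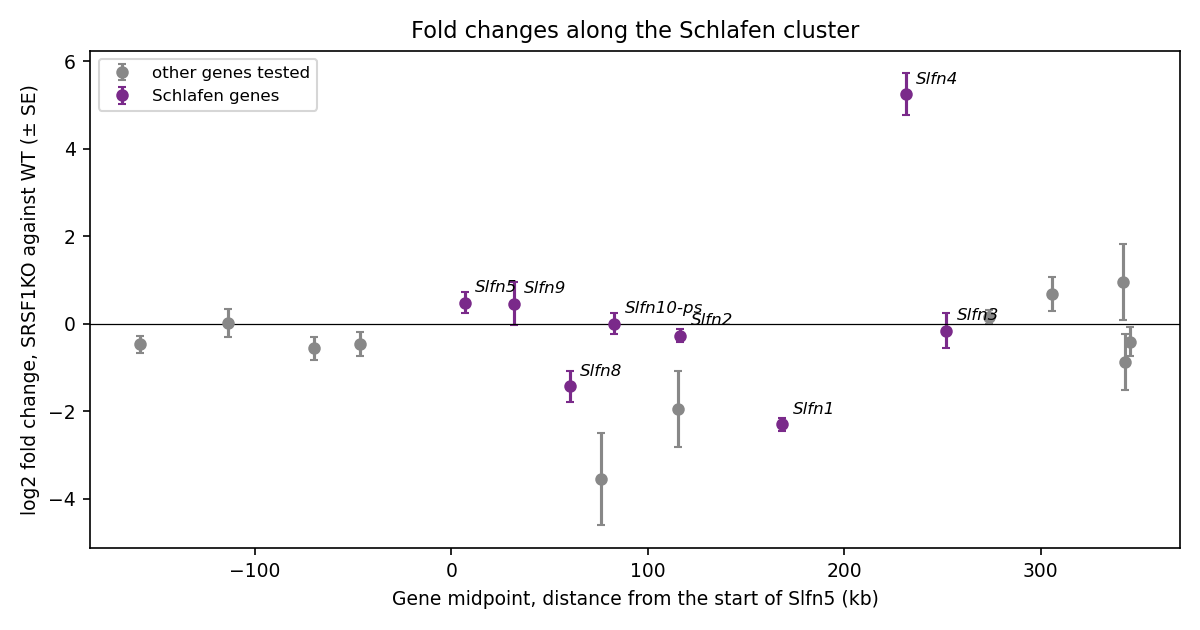
Log2 fold change of SRSF1KO against WT (± SE) for the 8 Schlafen genes (purple) and 11 other tested genes in and beside the cluster (grey), by distance of the gene midpoint from the start of Slfn5. Fndc8, with 0 counts in every WT library, is not drawn. Slfn4 at 5.26 and Slfn1 at −2.30 are neighbours, and the genes outside the cluster lie between −0.88 and 0.96.

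The flanking genes were chosen by position alone. Of the 5 tested genes on each side and the 2 tested within the cluster, 0 were called with edgeR, 3 had an unadjusted p under 0.05, and DESeq2 called Fndc8 higher and Gm11425 lower (limma-voom called 0). On the Slfn5 side, Nle1 (−0.46 ± 0.28), Rad51d (−0.56 ± 0.26), Rffl (0.02 ± 0.33) and Lig3 (−0.46 ± 0.20) were not called (log2 fold change ± SE). Fndc8, which lies 50.6 kb from the cluster, had 0 counts in each WT library and 25 and 29 in SRSF1KO (edgeR adjusted p = 0.188). Within the cluster the pseudogene Gm11425, between Slfn8 and Slfn10-ps, held 64, 118 and 22 counts in WT and 6 and 5 in SRSF1KO (edgeR adjusted p = 0.204), with WT replicate 3 the lowest WT library, as for Slfn8. Gm20234, inside Slfn2, stood at −1.95 ± 0.87 (SE) on the log2 scale. Gm11424 held 0 counts in each library and Mir7679, within Slfn9, at most 6.

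On the Slfn3 side AI662270 stood at 0.15 ± 0.16, Gm11427 at 0.69 ± 0.39 and Snord7 at −0.88 ± 0.64 (log2 fold change ± SE). The noncoding gene AA465934 (83291699 to 83294637) read 3.14, 4.89 and 33.1 CPM in WT, against 28.1 and 25.2 CPM in SRSF1KO (log2 fold change 0.96 ± 0.87 SE, edgeR adjusted p = 0.703). As for Slfn9, WT replicate 3 was the highest library and lay with SRSF1KO, 10.5-fold above WT replicate 1. Without WT replicate 3 the log2 fold change was 2.74. Its likeness to Slfn9 was noticed after its values were seen. Whether WT replicate 3 carries the same sequence in this region of chromosome 11 as the other WT libraries was not tested, so the WT means of Slfn8, Slfn9 and AA465934 may pool unlike libraries.

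The deleted gene lies on the same chromosome as the family. Srsf1 (88046499 to 88053757) begins 4.83 Mb beyond the end of Slfn3. Of 68 genes tested between them edgeR called 0, with 12 at an unadjusted p under 0.05 (17.6%, against 14.4% of all genes), and DESeq2 called 5. The labels give 1 strain for both groups and no origin for the floxed allele. Any difference in chromosome 11 sequence that travels with the Srsf1 allele and the loss of SRSF1 itself cannot be told apart with these groups.

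Closest in pattern to Slfn1, by Euclidean distance of centred log2 CPM over the 5 libraries among genes whose mean reached 5 CPM, were Crtam (distance 0.21), Gbp10 (0.31) and Adgrg5 (0.39). Crtam, an adhesion receptor of activated T cells, read 11.4, 9.78 and 12.7 CPM in WT and 1.78 and 2.49 CPM in SRSF1KO. Gbp10, an interferon-inducible guanylate-binding protein gene, stood at 8.27 to 9.79 CPM in WT and 1.93 to 2.00 CPM in SRSF1KO. Adgrg5 was called lower, but Crtam and Gbp10 were not called (edgeR adjusted p = 0.0581 and 0.0637). For Slfn4 the closest genes were much less alike: Slc5a9 at a distance of 2.94, Myrfl at 3.02 and the haemoglobin gene Hba-a1 at 3.29. Myrfl stood at 0.0264 to 0.467 CPM in WT and at 11.2 and 14.7 CPM in SRSF1KO, which makes it similar to Slfn4 in being near 0 in each WT library. Slc5a9, Myrfl and Hba-a1 were not called (edgeR adjusted p = 0.0971, 0.0581 and 0.169).

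Since Slfn4 is known from myeloid cells, markers of other cell types were set beside it. The 16 monocyte and macrophage markers summed to 124 to 157 CPM in WT and to 154 and 178 CPM in SRSF1KO. Of the 15 tested, 11 had positive and 4 negative log2 fold changes, at a median of 0.40. Above WT in both SRSF1KO libraries lay 4 of them, as did 15.2% of all genes tested. Lyz2, the lysozyme gene of myeloid cells, stood at 50.3 to 55.1 CPM in WT and at 54.8 and 46.9 CPM in SRSF1KO, where 1 library lay within and 1 below the WT range. C1qb and C1qc, complement genes of macrophages, lay above WT in both SRSF1KO libraries, at 26.4 and 24.6 CPM against 13.4 to 21.7 CPM and at 17.5 and 17.4 CPM against 14.0 to 16.0 CPM. Fcgr1, an Fc receptor gene, did so as well, at 2.64 and 1.82 CPM against 0.286 to 1.35 CPM. The 12 neutrophil markers summed to 3.33 to 8.63 CPM in WT and to 5.63 and 31.1 CPM in SRSF1KO. All 7 neutrophil markers tested had positive log2 fold changes, at a median of 2.40. Of these 3 lay above WT in both SRSF1KO libraries, against 15.2% of all genes tested. In SRSF1KO replicate 1, where Slfn4 stood at 17.4 CPM, the neutrophil sum lay within the WT range, while Ngp (2.28 against at most 1.45 CPM) and Ltf (0.583 against at most 0.550 CPM), both granule protein genes, lay above it. In SRSF1KO replicate 2, where Slfn4 stood at 22.8 CPM, the neutrophil sum of 31.1 CPM lay above every WT library. There S100a9 read 7.69, S100a8 6.52 and Ltf 5.29 CPM, against at most 1.62, 2.78 and 0.550 CPM in WT. The listed markers Ly6g, Csf3r, Mmp8 and Retnlg did not lie above WT in that library. Elane, the neutrophil elastase gene, was at 0 in each WT library and at 0.305 and 1.87 CPM in SRSF1KO. Cd14, a monocyte receptor gene, was at 0 in WT replicates 1 and 2, at 0.234 CPM in WT replicate 3 and at 0.0277 and 0.699 CPM in SRSF1KO. Ly6g, which defines neutrophils, was at 0 in each library but WT replicate 2. With edgeR, calls numbered 0 among the 15 tested monocyte and 7 tested neutrophil markers (0 and 2 at an unadjusted p under 0.05, 0 and 1 with DESeq2, 0 of either with limma-voom).

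**Figure D4:**
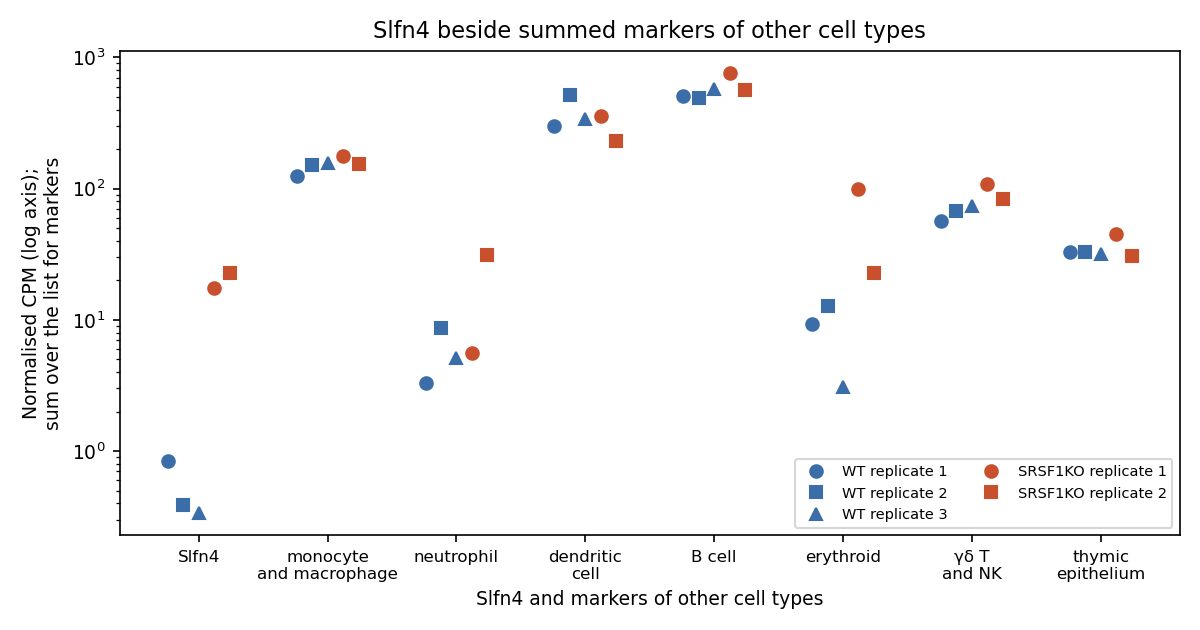
Normalised CPM (log axis) of Slfn4 and of the summed markers of 7 other cell types in the 3 WT (blue) and 2 SRSF1KO (red) libraries, 1 point a library. Slfn4 is at most 0.845 CPM in WT and at least 17.4 CPM in SRSF1KO, and the erythroid sum is higher in both SRSF1KO libraries than in any WT library.

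The summed erythroid markers were higher in both SRSF1KO libraries than in any WT library. The sum was 3.06 to 12.7 CPM in WT and 99.1 and 22.9 CPM in SRSF1KO, with the globin gene Hba-a1 at 0.701 to 4.81 CPM and at 42.4 and 12.2 CPM. Of the 5 tested edgeR and limma-voom called 0, 4 were higher at an unadjusted p under 0.05, and DESeq2 called 2 higher. The erythroid genes Klf1 and Slc4a1 were at 0 in both SRSF1KO libraries and also in WT replicates 1 and 2. Both were above 0 only in WT replicate 3. The γδ T and NK cell sum was also higher in SRSF1KO, at 108 and 83.7 CPM against 56.5 to 74.1 CPM, but its genes were split, with 3 of 6 tested log2 fold changes negative and 3 positive. Trdc, the δ chain constant gene, read 56.9 and 43.9 CPM in SRSF1KO against 27.5 to 32.1 CPM in WT, and Gzma, a granzyme gene, 43.8 and 33.9 CPM against 19.7 to 27.5 CPM. Klrd1, an NK receptor gene, lay the other way, at 2.80 and 1.06 CPM against 6.86 to 7.25 CPM. In this list edgeR and limma-voom called 0, and DESeq2 called 1 lower and 1 higher (1 lower and 2 higher at an unadjusted p under 0.05). Sums of B cell (495 to 570 against 561 to 764 CPM), dendritic cell (300.5 to 514 against 230 to 355 CPM) and thymic epithelial markers (32.0 to 33.2 against 30.4 to 45.2 CPM) overlapped between WT and SRSF1KO. The part of such cells in the Schlafen values was not tested.

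The pathway around the family was described with 4 lists of genes. Of all genes tested, 14.4% had an unadjusted p under 0.05 with edgeR, and DESeq2 called 6.22% of the genes it tested. The interferon signalling list held receptors, kinases, STAT and IRF factors, with Socs1, Socs3, Usp18, Ifnb1 and Ifng. Of its 17 tested genes 0 were called with edgeR (6 lower and 2 higher at an unadjusted p under 0.05, 5 lower and 2 higher with DESeq2, 0 with limma-voom). The median log2 fold change was −0.20, and it was −0.01 without SRSF1KO replicate 1 and −0.41 without SRSF1KO replicate 2. With the 5 CPM filter edgeR called 2 of these genes, and without a filter 4. Irf9, the DNA-binding subunit of the factor that acts on interferon response elements, read 148, 162 and 137 CPM in WT and 109 and 95.7 CPM in SRSF1KO (log2 fold change −0.54 ± 0.12 SE, edgeR adjusted p = 0.127). Irf7, which amplifies the response, stood at −0.85 ± 0.18 (SE, edgeR adjusted p = 0.12).

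Of 38 interferon-stimulated genes outside the Schlafen family, 1 was called lower with edgeR and 0 higher, at a median of −0.65 with 33 negative. At an unadjusted p under 0.05 (edgeR) 23 were lower and 0 higher, against 1466 lower and 1024 higher of all 17351 genes tested. DESeq2 called 13 of the list lower and limma-voom 3. Without SRSF1KO replicate 1 the median was −0.39 with 1 call, and without SRSF1KO replicate 2 it was −0.82 with 6 calls. The called gene, Ifi27l2a, read 160, 159 and 166 CPM in WT and 40.3 and 64.6 CPM in SRSF1KO (log2 fold change −1.62 ± 0.20 SE, edgeR adjusted p = 0.0483). With edgeR 8 genes of the list were called with the 5 CPM filter and 11 without a filter. No gene of the list was called with DESeq2's size factors in edgeR, the sex term, the replicate block or any 1 WT library left out. Slfn4, Slfn5 and Slfn9 had positive log2 fold changes, unlike most genes of this list, and Slfn1 and Slfn8 negative ones. Among these only Slfn1 and Slfn4 passed, and the difference from the list was not tested.

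Of 24 T cell quiescence genes, the process Slfn2 serves, 0 were called with edgeR (5 lower and 5 higher at an unadjusted p under 0.05, 4 lower and 3 higher with DESeq2, 1 each with limma-voom). Over all genes the unadjusted share was 14.4%, and DESeq2 called 6.22% of the genes it tested. Foxo1 and S1pr1, named for the smallest p, were both lower, while 5 genes of the list were higher at the unadjusted threshold. With edgeR 6 were called with the 5 CPM filter, 6 without a filter and 1 without SRSF1KO replicate 2. The median was −0.10, between −0.25 and −0.03 with 1 library left out. Foxo1, a transcription factor of quiescent T cells, read 64.6, 77.6 and 60.8 CPM in WT and 27.9 and 35.4 CPM in SRSF1KO (edgeR adjusted p = 0.0712). S1pr1, the egress receptor, stood at −0.99 ± 0.18 (SE, edgeR adjusted p = 0.0917). Of 19 genes of RNA cleavage and tRNA stress 0 were called with edgeR (3 lower and 2 higher at an unadjusted p under 0.05, 1 higher with DESeq2, 0 with limma-voom) and 1 each with the 5 CPM filter and without a filter, at a median of −0.21, or −0.08 without SRSF1KO replicate 1 and −0.39 without SRSF1KO replicate 2. The ribotoxic stress kinase gene Map3k20 read 5.28, 4.31 and 6.86 CPM in WT and 22.9 and 11.5 CPM in SRSF1KO (edgeR adjusted p = 0.129). Nsun2, a tRNA methyltransferase gene, stood at −0.41 ± 0.12 (SE, edgeR adjusted p = 0.210).

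Over 13 alternatives Slfn1 stayed between −2.45 and −2.14 and Slfn4 between 5.03 and 5.79, while Slfn8 lay between −1.92 and −1.05 and Slfn9 between 0.17 and 1.24.

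**Figure D5:**
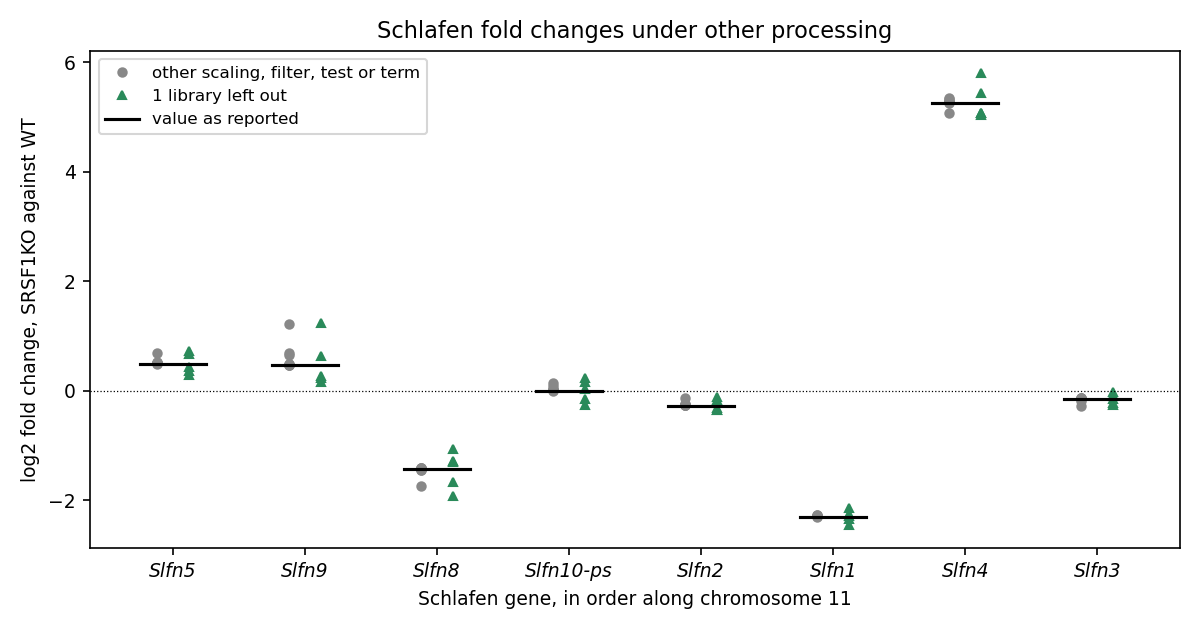
Log2 fold change of SRSF1KO against WT for the 8 Schlafen genes as reported (black bar), under 8 other scalings, filters, tests or model terms (grey circles) and with each of the 5 libraries left out (green triangles). Slfn1 stays between −2.45 and −2.14 and Slfn4 between 5.03 and 5.79, and Slfn9 spreads from 0.17 to 1.24.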

How the data were processed

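RNA-seq was deposited for 3 WT and 2 SRSF1KO libraries as 1 table of raw counts per gene, not normalised, with RNA from a column kit and Smart-seq2 libraries per the labels' protocols. HTSeq 0.6.1, cutadapt 1.17, Bowtie2 2.1.0, DESeq2 1.20.0, HOMER 4.9.1, FastQC 0.11.5, Trim Galore and mm10 are listed, per the submitters' processing notes, with no role for any. For the aligner, annotation release, strand setting and treatment of reads that match several genes, the answer is not given in the sources used here. Groups came from the titles. IDs were matched to symbols in a names table (53620 of 53715), and coordinates and upstream windows came from RefSeq for GRCm38.p6, the assembly mm10 stands for.

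The whole table was fitted with edgeR 4.0.16 in R 4.3.3 (TMM, filterByExpr, robust glmQLFit and glmQLFTest, group as the only term), and p-values were adjusted over all genes by the Benjamini-Hochberg method, two-sided, with a threshold of 0.05. Standard errors were derived from the fold change and the F statistic. The fit was tested on simulated counts with known changes. Motifs were searched on both strands, and upstream windows were aligned globally (match 1, mismatch −1, gap opening −2, gap extension −0.5).

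The members, lists, rules and tests were chosen with earlier results of these data known. Named genes were the members, Slfn14, Slfnl1, Srsf1, the 5 tested genes on each side of the cluster and those within it, up to 4 called genes of each list or else the 2 with the smallest p, markers outside the WT range, and the 3 closest profiles to Slfn1 and Slfn4. Some genes that the rule takes are not reported here. The alternatives tried were DESeq2 1.42.0, upper-quartile scaling, edgeR with the size factors of DESeq2, no filter, dropping genes whose mean was under 5 CPM, limma-voom (limma 3.58.1), the replicate number as a block, a term for sex, and each library left out. Sums of neighbouring copies, values within a sex pattern and list medians under the alternatives were added after the data were examined.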

Additional observations from a re-analysis of the deposited data

How the results depend on the processing

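The calls depended more on the processing than the fold changes did. Schlafen members called lower numbered 1, but 2 with DESeq2 or when genes whose mean was under 5 CPM were dropped (Slfn8 was added), 0 with the replicate block, and 0 to 1 with 1 library left out. Members called higher numbered 1, but 0 with the sex term or the replicate block, and 0 to 1 with 1 library left out. Over all genes 37 were lower and 9 higher. The counts were 633 and 383 with DESeq2, 7 and 3 with DESeq2's size factors in edgeR, 71 and 23 with limma-voom, 233 and 143 with the filter on the mean, 346 and 198 without a filter, 5 and 0 with the sex term, 0 and 0 with the replicate block (914 and 726 at an unadjusted p under 0.05), and 0 to 67 and 0 to 21 with 1 library left out. Without WT replicate 1, 2 or 3 0 genes were called with edgeR (1042 lower and 861 higher, 1113 and 892, and 1092 and 987 at an unadjusted p under 0.05), and without SRSF1KO replicate 1 the counts were 8 and 3. The cause was not tested. Of the genes beside the cluster 0 were called, and 2 with DESeq2.

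With the replicate block Slfn1 stood at −2.27 and Slfn4 at 5.07. Same-numbered libraries deviated together at a Pearson r of −0.02 and 0.03 across 17351 genes. Because the 2 SRSF1KO libraries deviate from their mean as mirror images, these values cannot show whether same-numbered libraries share more than a number. Slfn10-ps changed sign with limma-voom (−0.0011) and with 1 library left out (−0.26 to 0.24), as did Rffl (−0.23 to 0.31) and Gm11427 (−0.0034 to 1.172) with 1 library left out. The Srsf1 call was lost with DESeq2's size factors, the replicate block or any 1 library left out. With 1 SRSF1KO library left out, the other is assumed to vary like WT. Low counts limit Slfn4 in WT and Slfn3.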
